A study of Mus musculus with 9 samples.

Results

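The 8 genes described here mark the alpha and delta cells of the pancreatic islet, namely the hormone genes Gcg and Sst, the carrier genes Ttr and Rbp4, and the transcription factor genes Hhex, Irx1, Irx2 and Etv1. They were chosen by symbol, and every probe carrying one of these symbols was used. Of the 8 genes, 6 had a probe with that symbol, and these 6 had 8 probes in all, among 24613 probes and 15967 named genes. Rbp4 and Irx2 had no probe under their symbol or gene number in the probe annotation used and are not analysed here. All 8 probes passed the filter on dim probes, which asked for signal above background on every array of some group, and which 9937 genes passed.

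Illumina bead arrays had been hybridized with labelled RNA of 3 groups of mouse samples, with 3 arrays each. The induced cells were GFP+ cells, about 5000 per sample, sorted by FACS from the pancreas of adult rag-/- mice 1 month after infection with an adenovirus named M3, and 22% of them were insulin-positive by the labels. The islet samples were 4 to 5 whole islets each, picked by hand from adult pdx-gfp transgenic mice, so that they held every islet cell type together with vessels. The non-islet samples, about 10000 cells each, were pancreatic tissue of pdxa-gfp animals from which islets had been taken out. The labels do not say what M3 carries; from published work the name is known for the transcription factor genes Pdx1, Neurog3 and Mafa. Rag-deficient mice lack mature T and B lymphocytes, and since they are another line than the transgenic mice, the effects of mouse line, virus and cell sorting cannot be told apart when induced cells are compared. No label ties the arrays of a group to separate animals, so that the spread behind each p-value is that of these samples and may be technical.

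Alpha cells secrete glucagon, which raises blood glucose by acting on the liver, and delta cells secrete somatostatin, which holds back the release of both insulin and glucagon nearby. Irx1 and Irx2 are homeobox genes of alpha cells, Hhex is a homeobox gene needed to keep mouse delta cells, and Etv1 encodes an ETS family factor. Ttr encodes transthyretin, which carries thyroid hormone and, bound to the retinol binding protein made from Rbp4, retinol in blood. In the mouse islet Ttr is best known from alpha cells and Rbp4 from delta cells, and both are made in bulk by the liver.

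The stretches before the start sites of Gcg, Sst and Hhex are shown because both hormone genes had no signal above background in non-islet cells and a high one in the other groups, while Hhex moved the other way from Sst between induced cells and islets. They are the 250 bases before the start, 5′ to 3′ on the strand of the gene, from RefSeq (GRCm38.p6), and capitals mark the cyclic AMP response element TGACGTCA and TATAA on either strand.
Gcg (chr2:62483654-62483903, minus strand): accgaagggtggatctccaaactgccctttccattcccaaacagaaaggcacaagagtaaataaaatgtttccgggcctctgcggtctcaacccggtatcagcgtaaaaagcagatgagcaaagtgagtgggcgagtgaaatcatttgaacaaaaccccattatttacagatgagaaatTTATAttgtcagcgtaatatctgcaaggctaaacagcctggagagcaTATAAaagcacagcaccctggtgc
Sst (chr16:23890845-23891094, minus strand): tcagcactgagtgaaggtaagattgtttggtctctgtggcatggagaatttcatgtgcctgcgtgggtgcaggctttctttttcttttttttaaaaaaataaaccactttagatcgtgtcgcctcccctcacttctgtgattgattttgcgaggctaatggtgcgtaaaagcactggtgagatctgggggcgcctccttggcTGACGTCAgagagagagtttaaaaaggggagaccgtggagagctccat
Hhex (chr19:37434591-37434840, plus strand): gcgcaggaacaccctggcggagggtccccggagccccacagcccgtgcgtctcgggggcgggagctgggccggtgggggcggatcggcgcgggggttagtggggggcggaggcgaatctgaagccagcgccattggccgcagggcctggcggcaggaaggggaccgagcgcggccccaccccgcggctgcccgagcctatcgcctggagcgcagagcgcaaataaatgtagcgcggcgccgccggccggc
The element TGACGTCA, which the factor CREB binds, was found in the Sst stretch, 48 to 41 bases before the start, and in 1.55% of 32851 such stretches of mouse genes. The Gcg stretch held no TGACGTCA and had TATAA 24 to 20 bases before the start on its own strand and 71 to 67 bases before it on the opposite strand. The sequence TATAA occurred on either strand in 22.8% of all stretches. TAAT, the core read by many homeodomain factors, occurred on either strand in 54.9% of all stretches, with 2 copies before Gcg, 1 before Sst and 0 before Hhex. In the Hhex stretch 76% of the bases were G or C, in the Gcg stretch 44.8% and in the Sst stretch 47.2%. Motif matches are a description of these letters only.

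The deposited values are linear intensities with the background already subtracted, so that values around 0 mean no signal. A value counted as above background when it exceeded 1.64 times the noise SD of its array, which put the limit at 2.43 to 2.56 on induced arrays, 3.10 to 3.37 on islet arrays and 7.24 to 7.93 on non-islet arrays. Between 13476 and 13689 probes were above background on induced arrays, 13527 to 13764 on islet arrays and 9210 to 9933 on non-islet arrays. Beta cell markers summed to 7626 to 8129 on induced arrays, 17542 to 20509 on islet arrays and 70.2 to 92.7 on non-islet arrays (7 genes). Acinar markers were bright in all groups, at 32965 to 34745, 40021 to 46568 and 141192 to 152561 in the same order (7 genes). Of the gut endocrine markers measured, Cck, Gast, Gip, Sct and Tph1 all passed the background limit on every induced array and summed to 1170 to 1191 there, against 10.7 to 17.0 on islet arrays and 4.74 to 15.5 on non-islet arrays. Gut endocrine cells can also make somatostatin and glucagon-gene peptides, and the part of this in the results below was not tested. Precision is limited by the small number of arrays.

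The hormone genes and the carrier gene Ttr were lower in induced cells than in islets, and the measured factor genes split. Gcg, Sst and Ttr were lower, by 4.82-fold, 1.90-fold and 1.54-fold after quantile normalization of all 9 arrays, with smaller differences under the other scalings given below. Irx1 was above background on the islet arrays and on no induced array. Hhex was 1.94-fold higher in induced cells, and Etv1 was 2.84-fold higher by its brightest probe, though not by its other probes. All 6 genes passed the test (limma, adjusted p under 0.05), 2 higher and 4 lower, in a comparison in which 51.3% of 9937 genes were called, 24.1% higher and 27.2% lower. With a common median in place of quantile normalization 3 of the 6 were called. Irx1 had passed the filter through the islet arrays alone, where its values (4.58 to 5.23) were dim and near the limit of 3.10 to 3.37. Its call is therefore no support, and without a filter it was not made. Folds and tests come from quantile-normalized values with an offset of 12 before log2, and the deposited values by array are given beside them. Fewer cells of a type and less RNA per cell cannot be told apart in such bulk samples.

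**Figure D1:**
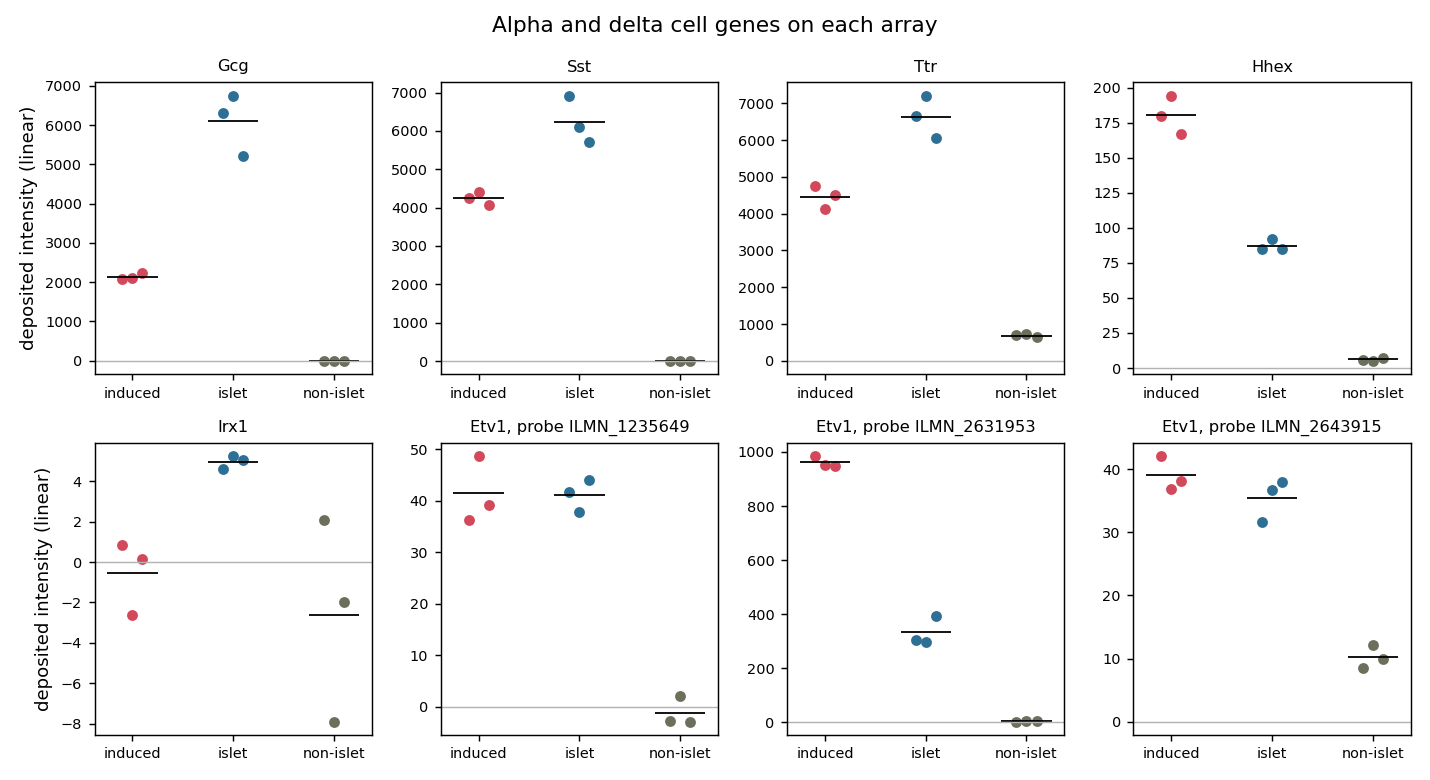
Deposited intensity (linear, y axes differ) of each probe on every array, by group, with 1 point per array and a line at the group mean (n = 3). Gcg, Sst and Ttr are highest in islets and Hhex and the brightest Etv1 probe in induced cells; the other 2 Etv1 probes overlap between induced cells and islets, and Gcg and Sst lie near 0 in non-islet cells.

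Gcg, the gene of glucagon and its sister peptides, had deposited intensities of 2073, 2101 and 2238 on the induced arrays, 6322, 6754 and 5215 on the islet arrays, and -2.54, 3.07 and 1.93 on the non-islet arrays. No induced array reached the lowest islet array, and no non-islet array was above background. The mean was 2138 ± 88.4 in induced cells against 6097 ± 794 in islets (SD, n = 3 each), so that induced cells held 35.1% of the islet intensity. After quantile normalization the difference between induced cells and islets was -2.27 on the log2 scale (SE 0.13, 95% interval -2.55 to -1.99, adjusted p = 7.6e-08). This SE comes from a spread shared by all 3 groups. The log2 SD of Gcg was 0.0091 in induced cells, 0.094 in islets and 0.27 in non-islet cells, where it had no signal. Quantile normalization over all 9 arrays moved the islet mean of Gcg to 10201, above the deposited 6097, and left the induced mean at 2106, near the deposited 2138. The difference depended in size on the scaling, at -1.49 in the values as deposited, -1.42 with the 2 groups normalized alone, -1.10 with arrays given a common median and -1.14 with arrays given equal noise, and was called under each. Against non-islet cells Gcg was at least 100-fold higher in induced cells (adjusted p = 1.03e-11) and at least 484-fold higher in islets (adjusted p = 8.06e-13). These bounds set the bright group against the lowest signal above background on the dim arrays.

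Sst, the gene of somatostatin, which carries the response element shown above, had 4250, 4413 and 4075 on the induced arrays, 6920, 6093 and 5707 on the islet arrays and 5.54, 6.75 and 6.41 on the non-islet arrays. All induced values lay below all islet values, and the non-islet values were all under the background limit. Induced cells averaged 4246 ± 169 and islets 6240 ± 620 (SD, n = 3 each), and thus held 68.1% of the islet intensity, a larger share than for Gcg. The difference was -0.93 (SE 0.099, 95% interval -1.14 to -0.71, adjusted p = 1.43e-05). It shrank to -0.55 in the values as deposited, -0.40 with the 2 groups normalized alone, -0.20 at equal noise and -0.16 with a common median, and the last of these was not called (adjusted p = 0.0654; range over all alternatives 4.84e-08 to 0.0654). Sst was at least 258-fold higher in induced cells than in non-islet cells (adjusted p = 7.31e-13), and at least 490-fold higher in islets than in non-islet cells (adjusted p = 3.84e-13).

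The balance of the 2 hormone signals differed between induced cells and islets without overlap. The log2 difference between Gcg and Sst signals on the same array was -1.35, -1.53 and -1.21 on induced arrays, against -0.10, 0.14 and -0.10 on islet arrays. The groups differed by -1.34, and the exact two-sided permutation test gave p = 0.1, the smallest that 3 arrays against 3 allow (adjusted p = 0.1 over 4 such tests). The unequal change was smaller, at -0.94 to -0.95, in the deposited values, with a common median and at equal noise. Since the quantity is taken within an array, it shows unequal change between the genes and not which of them changed. The brightest probe of each array read 7612 to 8363 in islets and 6078 to 6509 in induced cells. Whether signals as bright as those of Gcg, Sst and Ttr were compressed was not tested.

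Ttr, the transthyretin gene, was above background on all 3 non-islet arrays. Its intensities were 4744, 4123 and 4495 on the induced arrays, 6644, 7208 and 6062 on the islet arrays and 697, 727 and 641 on the non-islet arrays. The 3 groups were apart, with islets highest and non-islet cells lowest. Induced cells averaged 4454 ± 312, islets 6638 ± 573 and non-islet cells 688 ± 43.5 (SD, n = 3 each). Induced cells held 67.1% of the islet intensity, close to the 68.1% of Sst, and the log2 difference was -0.62 (SE 0.17, 95% interval -0.99 to -0.24, adjusted p = 0.0105). This call was lost with a common median (-0.18, adjusted p = 0.117) and at equal noise (-0.22, adjusted p = 0.0529), within a range of 3.44e-05 to 0.117 over all alternatives, and the difference was -0.39 with the 2 groups normalized alone and -0.40 without induced array 2. Non-islet cells held 10.4% of the islet intensity of Ttr, while Gcg and Sst were not above background on any non-islet array. Ttr was 7.86-fold higher in induced cells (2.98, adjusted p = 3.07e-08) and 12.1-fold higher in islets (3.60, adjusted p = 7.32e-09) than in non-islet cells.

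Markers of liver cells were checked beside Ttr, since hepatocytes make it in quantity. Alb and Fgb were above background on no array of any group. Of the 5 hepatocyte markers 3 had a kept probe, with a summed intensity of 61.1 to 88.0 on induced arrays, 35.5 to 51.6 on islet arrays and 16.8 to 24.7 on non-islet arrays. Between induced cells and islets 24.1% of all genes were called higher and 27.2% lower. Of 7 measured plasma protein genes of the liver, 3 were higher in induced cells than in islets and 2 were lower (median log2 difference 0.17, against -0.035 over all genes). They included Serpina1b, a protease inhibitor gene that was lower (-1.78), Fga, a fibrinogen chain gene that was higher (1.67), Apoa2, a lipoprotein gene that was higher (0.69), and Serpina1a, lower by at least 1.17-fold. Serpina1a was above background on no induced array, so that its call is no support. Under the other scalings Serpina1b stood at -1.75 to -0.92 and Fga at 0.99 to 1.85, both still called.

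Hhex, the delta cell homeobox gene, had intensities of 180, 194 and 167 on the induced arrays, 84.8, 92.0 and 84.8 on the islet arrays and 5.87, 5.13 and 7.46 on the non-islet arrays. Every induced array was above every islet array. Induced cells averaged 180 ± 13.7 and islets 87.2 ± 4.14 (SD, n = 3 each), a log2 difference of 0.96 (SE 0.092, 95% interval 0.75 to 1.16, adjusted p = 6.23e-06), and the gene was called higher under every alternative tried, at 0.71 to 1.26. Duct cell markers were higher in induced cells too, 5 of 5 by the test, where 24.1% of all genes were higher and 51.3% called. Their median log2 difference was 1.21, against -0.035 over all genes. Cftr, 1 of these markers, was above background on no islet array, so that its call is no support. The duct markers summed to 2265 to 2428 on induced arrays, 1077 to 1227 on islet arrays and 883 to 1008 on non-islet arrays. Their part in the Hhex result was not tested. On non-islet arrays Hhex was above background on 1 of 3. Its fitted difference from non-islet cells was 3.04 in induced cells (adjusted p = 2.1e-10) and 2.08 in islets (adjusted p = 4.4e-09), sizes that depend on the offset, at 1.77 and 1.06 with an offset of 50. Sst and Hhex, both genes of delta cells, thus differed in direction between induced cells and islets, although Sst was not called with a common median. The log2 difference of Sst and Hhex signals within an array was 5.13, 5.18 and 5.04 on induced arrays and 7.04, 6.89 and 7.07 on islet arrays, a change of -1.88 (exact two-sided permutation p = 0.1, adjusted p = 0.1 over 4 tests).

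Irx1, the alpha cell homeobox gene, had deposited values of 0.856, -2.60 and 0.135 on the induced arrays, 4.58, 5.23 and 5.06 on the islet arrays and 2.07, -7.89 and -1.97 on the non-islet arrays. It was above background on 3 of 3 islet arrays and on none of the induced or non-islet arrays, although the limit on the non-islet arrays was itself above the islet values. The probe was tested because of its islet signal alone. The fit gave an adjusted p of 0.0332 for induced cells against islets, which did not hold without a filter, with a common median, for deposited values, or without induced array 2 or any 1 of the 3 islet arrays (adjusted p = 0.0529, 0.154, 0.0651, 0.146 and 0.0747 to 0.0865, range 0.00159 to 0.154). No difference from non-islet cells could be measured for Irx1, since the background limit there exceeded its islet signal.

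Etv1 had 3 probes, and they disagreed. By the brightest, ILMN_2631953, intensities were 984, 952 and 949 on the induced arrays, 306, 297 and 394 on the islet arrays and 2.75, 5.06 and 3.21 on the non-islet arrays. Induced arrays lay far above islet arrays, with a log2 difference of 1.50 (SE 0.11, 95% interval 1.26 to 1.75, adjusted p = 7.3e-07). Probe ILMN_1235649 had 36.4, 48.6 and 39.3 on induced arrays, against 41.8, 37.8 and 44.0 on islet arrays, and the groups overlapped (0.095, 95% interval -0.20 to 0.39, adjusted p = 0.608). Probe ILMN_2643915 had 42.1, 36.9 and 38.1 on induced arrays, against 31.7, 36.8 and 37.9 on islet arrays. Its groups overlapped in these deposited values but not after quantile normalization, and it was not called (0.19, 95% interval -0.052 to 0.43, adjusted p = 0.185). Against non-islet cells all 3 probes were higher in induced cells, by at least 39.4-fold, by at least 2.25-fold and by 0.82 on the log2 scale in the order given (adjusted p = 1.78e-11, 1.1e-07 and 3.03e-05). Which transcripts each probe reads is not given in the sources used here.

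**Figure D2:**
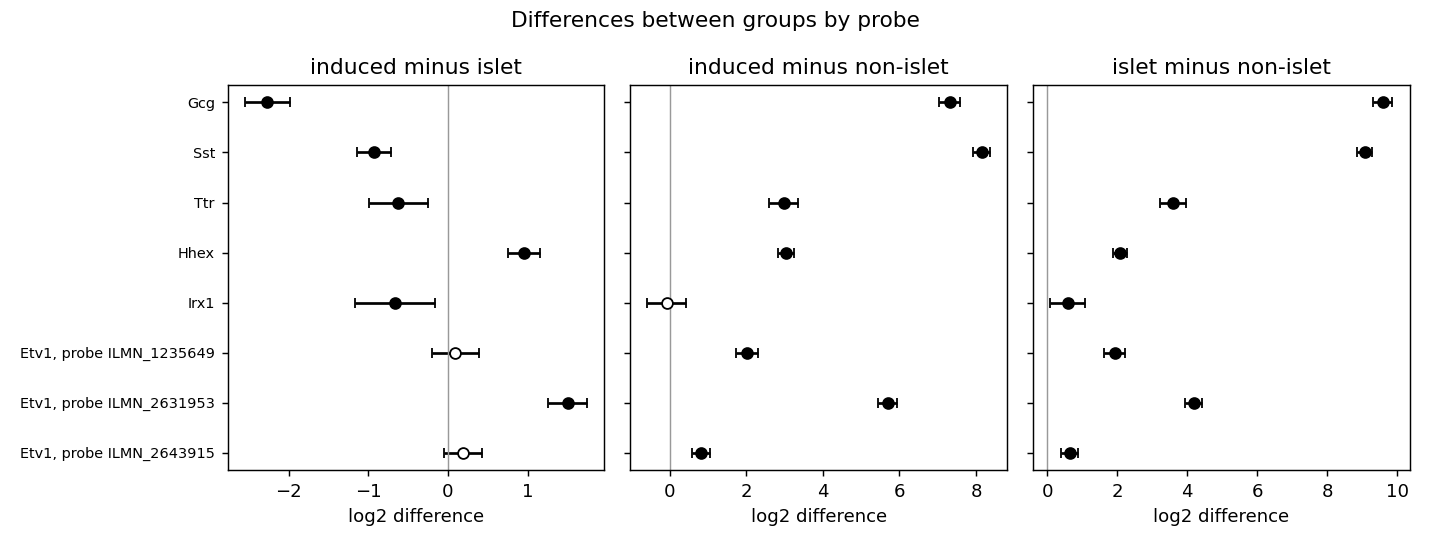
Log2 difference with its 95% interval (limma, n = 3 arrays per group) for each probe, in 3 comparisons with different x axes; filled points were called at an adjusted p under 0.05 and open points were not. Between induced cells and islets Gcg, Sst, Ttr and Irx1 lie left of 0 and Hhex and all 3 Etv1 probes right of it, with 1 of the 3 called. Fitted sizes against arrays below background depend on the offset and are no bounds.

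Against non-islet cells 5 of 6 members (all but Irx1) were called higher in induced cells, where 40.7% of all genes were higher, 36.8% lower and 77.5% called in all. The same 5 were called higher in islets against non-islet cells, where 41.4% of genes were higher, 34.8% lower and 76.2% called in all. Irx1 is left out of the second count, because its call (adjusted p = 0.038) set islet values under the non-islet limit against noise and was not made without a filter (adjusted p = 0.0518). Of the 5, Gcg, Sst, Hhex and Etv1 by its brightest probe passed the filter only through induced cells and islets, where they are high, so that the counts are no support. Both comparisons share the non-islet arrays. Levels of Gcg, Sst and Ttr ran from non-islet cells over induced cells to islets, and those of Hhex and of the brightest Etv1 probe from non-islet cells over islets to induced cells. Neighbours in these orders differed beyond their spread, except for Sst and Ttr between induced cells and islets under the scalings named above.

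**Figure D3:**
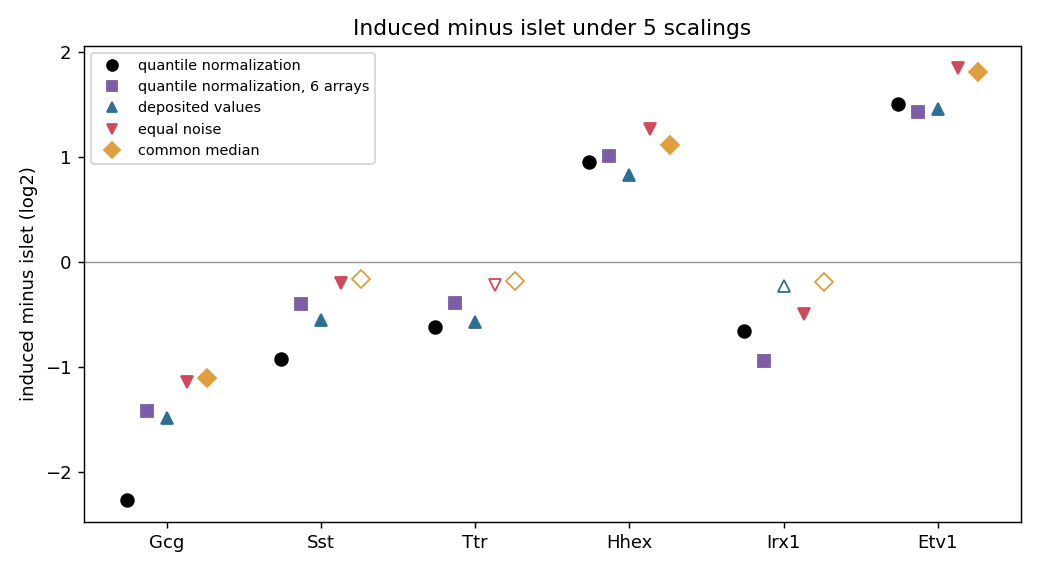
Induced minus islet log2 difference of each gene's brightest probe (y axis) under 5 scalings (symbols); filled symbols were called (limma, adjusted p under 0.05) and open ones were not. Gcg runs from -2.27 to -1.10 and stays called, Sst and Ttr approach 0, and Hhex and Etv1 stay above 0.

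The other alpha cell genes went both ways. Of 18 listed, 12 had a kept probe, and in induced cells against islets 3 were higher, 4 were lower and 5 were not called (median log2 difference -0.057, against -0.035 over all genes). In the same comparison 24.1% of all genes were higher and 27.2% lower, so that going both ways is not particular to this list. Slc38a5, an amino acid transporter gene that marks alpha cells when glucagon signalling is blocked, was higher by 4.08 (adjusted p = 8.84e-11), but it was also bright in non-islet cells, with intensities of 5364 ± 49.0 in induced cells, 721 ± 16.3 in islets and 2449 ± 223 in non-islet cells (SD, n = 3 each). Dpp4, which encodes the peptidase that cuts glucagon-like peptides, was lower by -2.99 (adjusted p = 2.43e-08), at 12.5 ± 0.933 in induced cells and 219 ± 10.6 in islets. Isl1, a homeobox gene active across islet hormone cells, and Gpx3, a secreted glutathione peroxidase gene, were lower as well (-2.88 and -2.49, adjusted p = 3.15e-09 and 4.36e-07). Under the other scalings these 4 genes kept their calls with differences of 2.84 to 3.22 for Slc38a5, -2.92 to -2.19 for Dpp4, -2.53 to -2.16 for Isl1 and -2.10 to -1.72 for Gpx3. Against non-islet cells induced cells had 8 of the 12 higher and 2 lower, where 40.7% of all genes were higher and 36.8% lower. Islets had 7 of the 12 higher and 4 lower, where 41.4% of all genes were higher and 34.8% lower.

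Of 16 further delta cell genes 10 had a kept probe, of which 2 were higher in induced cells than in islets and 3 were lower (median -0.28). Over all genes 24.1% were higher and 27.2% lower. Pdx1, which delta cells share with beta cells, was higher by 2.95 (adjusted p = 1.45e-08), and it is not known if that probe binds RNA made from the virus too. Cckbr, a receptor for gastrin and cholecystokinin, was at least 2.56-fold higher (adjusted p = 1.37e-06), with 28.4 ± 2.27 in induced cells and no islet array above background. The ligand genes Cck and Gast moved with it, at least 14.8-fold and 23.0-fold higher (adjusted p = 5.51e-10 and 2.27e-10). Both passed the filter through the induced arrays alone, where they are high, so that their calls are no support. Between induced cells and islets, only induced cells had Cckbr above background, so that its call is no support either. Hadh, a gene of fatty acid oxidation, and Arg1, an arginase gene, were lower (-2.90 and -1.26, adjusted p = 2.37e-09 and 1.32e-05). Hadh stood at -2.63 to -2.21 under the other scalings, and Cckbr, fitted at 1.77, at 0.91 to 1.82, each still called. Ghsr, the ghrelin receptor gene of mouse delta cells, was dim in both groups, at 5.57 ± 0.837 and 10.8 ± 2.51, and was not called (-0.23, adjusted p = 0.149). In the values as deposited 6 of the 10 delta cell genes were lower and 2 higher, and at equal noise 6 were lower and 3 higher. Of all 13928 kept probes 4720 were lower and 3129 higher as deposited, and 3287 were lower and 5152 higher at equal noise.

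Of 9 genes listed as receptors of somatostatin, glucagon and related peptides 4 had a kept probe, 1 of them higher and 2 lower in induced cells. Over all genes 24.1% were higher and 27.2% lower, with 51.3% called in all. In induced cells against islets the somatostatin receptor gene Sstr2 was higher (1.14, adjusted p = 4.48e-05), with 58.6 ± 2.00 in induced cells, 18.9 ± 1.24 in islets and 36.5 ± 12.5 in non-islet cells. Sstr3 was at least 1.50-fold lower and Glp1r, the receptor of glucagon-like peptide 1, lower by -0.35 (adjusted p = 0.000469 and 0.032). Sstr3 was above background on no induced array, so that its call is no support. The glucagon receptor gene Gcgr was not called (-0.10, adjusted p = 0.668).

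Among 22 genes of retinol and thyroid hormone transport and action 9 had a kept probe, 5 of them higher in induced cells than in islets and 2 lower (median 0.29), but 3 each way without further normalization. Over all genes 24.1% were higher and 27.2% lower. Without further normalization 3129 of all 13928 kept probes were higher and 4720 lower. Rbp7, a retinol binding protein gene known from endothelium, was at least 7.41-fold lower (adjusted p = 6.4e-08), with no induced array above background. Of the 2 groups compared it had signal in islets alone, so that its call is no support. Endothelial markers moved with it, summing to 27.1 to 34.2 on induced arrays and 1735 to 1821 on islet arrays (5 genes), and their part in this was not tested. Aldh1a1, an enzyme gene of retinoic acid synthesis, was higher (1.98, adjusted p = 1.61e-08), and Rbp2, an intracellular retinol carrier gene of the gut, was at least 1.59-fold higher (adjusted p = 2.37e-05). Rbp2 was above background on no islet array, so that its call is no support. Dio1, which encodes a deiodinase of thyroid hormone, was lower (-1.31, adjusted p = 3.98e-06). Rbp7, fitted at -3.36, stood at -3.24 at equal noise and -2.22 as deposited, smaller still with a common median, and stayed called under each, as did the others named here. Of the 7 Irx and Etv relatives 3 had a kept probe, all of the Etv family, and Etv5 was the only one called, lower by -0.37 (adjusted p = 0.0118). Irx3, Irx4, Irx5 and Irx6 did not pass the filter.

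**Figure D4:**
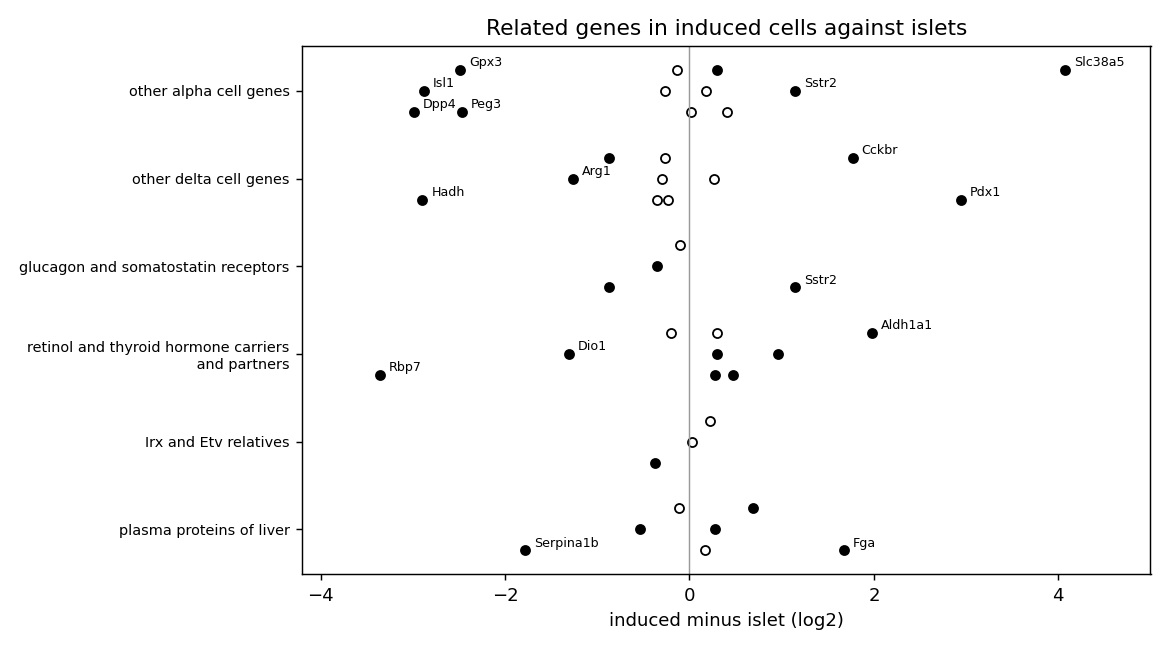
Induced minus islet log2 difference (x axis) of each measured gene in 6 lists (rows), filled where called (limma, adjusted p under 0.05) and open where not; genes past 1 in size are named. Each of the alpha, delta and carrier lists holds called genes on both sides of 0, from Rbp7 at -3.36 to Slc38a5 at 4.08.

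Genes whose pattern over the 9 arrays was most like each member were sought among 9936 other genes, as the smallest root mean square difference between log2 signals centred on each gene's own mean. It is a description over arrays of 3 groups, with no test. Nearest to Gcg were Resp18, Sst and Iapp, at distances of 0.36, 0.57 and 0.65, and nearest to Sst were Chga, Gcg and Pyy, at 0.47, 0.57 and 0.59. Resp18 had a mean intensity of 1804 ± 93.9 in induced cells, 4555 ± 251 in islets and 4.47 ± 3.29 in non-islet cells (SD, n = 3 each). Nearest to Ttr were Ddc, Cacna2d1 and Armcx2, at 0.22, 0.24 and 0.25, and nearest to Hhex were Gadd45g, Rtn2 and Dnajb1, at 0.087, 0.11 and 0.11. Gadd45g had 491 ± 50.3 in induced cells, 248 ± 27.0 in islets and 21.8 ± 4.00 in non-islet cells. The brightest Etv1 probe was nearest to Fosb, Ffar2 and Dusp1, at 0.36, 0.36 and 0.39, and the dim Irx1 probe to Fbxo2, Tubd1 and Ache, at 0.18, 0.20 and 0.20.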

How the data were processed

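Expression was measured on bead arrays in 9 samples. The authors' deposited values are linear intensity values made with BeadStudio, per the submitters' processing notes, which give no version or settings. From the values, background had been subtracted and every array brought to the same mean (74.2). Another table has 36 columns headed with positions on 2 slides; no label matches these positions to samples, so it was not used and slide effects were not tested. After quantile normalization, values were raised by 12, which brings the lowest to 1 or just above, before taking log2. The noise SD of an array came from its values below 0, mirrored at 0, and 13928 probes were kept. Each gene was represented by its brightest kept probe. Of the probes 20984 had 1 symbol, 1 had several and 3628 had none, and 20968 matched the reference gene table by gene number. Groups were compared with limma 3.58.1 in R 4.3.3 (1 mean per group, 6 residual degrees of freedom), with Benjamini-Hochberg adjustment over kept probes and a threshold of 0.05. The 3 groups shared 1 estimate of spread per probe, though the spread was unequal. The median log2 SD of a probe was 0.084 on induced, 0.091 on islet and 0.19 on non-islet arrays. The procedure was tested on simulated data. The members and gene lists were chosen with earlier results of these data known. Named genes were the 8 members, the 3 genes nearest to each measured member and up to 4 called genes of each list. Paired tests of Gcg with Irx2 and Ttr with Rbp4 could not be run. Arrays with the same number correlated at -0.12 to 0.19 in their deviations from the group means, so the numbers were not treated as pairs. Alternatives were other offsets, scalings, filters and variance models, 2 groups alone, a replicate block and leaving out each array.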

Additional observations from a re-analysis of the deposited data

How the results depend on the processing

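The alternatives were offsets of 16 and 50, a common median, the values as deposited, equal noise, no filter, a filter at 3 noise SD, a trended variance, array weights, the 2 compared groups alone, a replicate block, and leaving out each of the 9 arrays, with other probes for Etv1. The directions of Gcg, Sst, Ttr, Hhex and Etv1 held in all of them, and so did their calls, except those of Sst and Ttr and of 2 Etv1 probes between induced cells and islets. With a common median Sst (-0.16), Ttr (-0.18) and Irx1 (-0.19) were not called, leaving 3 of 6 members called, against 6 with Irx1; at equal noise Ttr (-0.22) was not called, and in the values as deposited Irx1 (-0.23). Probes ILMN_1235649 and ILMN_2643915 of Etv1 gave 0.095 and 0.19 in place of 1.50. Without a filter Irx1 lost its calls against islets (-0.66) and between islets and non-islet cells (0.58), and with array weights the second (0.57). Leaving out each array put Irx1 at -0.81 to -0.41 for induced cells against islets, 0.36 to 0.81 for islets against non-islet cells and -0.30 to 0.16 for induced against non-islet cells, the last reversed also with a common median (0.12), as deposited (0.11) and at equal noise (0.038). Irx1 values against non-islet cells lie within the noise there and measure no change. The stricter filter removed Irx1 from the test. The cause was not tested. The replicate block changed no call of a member (Gcg -2.27, adjusted p = 5.81e-07) and left 6612 probes called between induced cells and islets, against 6783; 4 of 9 arrays correlated best with their own number. The unequal change of Gcg and Sst between induced cells and islets was -0.94, -0.94 and -0.95 with a common median, as deposited and at equal noise (-1.47 to -1.27 leaving out arrays), and that of Sst and Hhex was -1.64 with an offset of 50, -1.27, -1.37 and -1.46 under the same 3 scalings (-1.96 to -1.79). Against non-islet cells, where Gcg and Sst are not above background, these quantities are set by noise and offset and are no measured change; they were -1.19 with an offset of 50 (-0.98 to -0.59 leaving out arrays) for Gcg and Sst, and 4.81, 4.34, 4.32 and 4.47 under the 4 settings (4.92 to 5.22) for Sst and Hhex. Probes called numbered 5808 to 9031 between induced cells and islets over all alternatives (main 6783), 9541 to 12819 between induced and non-islet cells (10609) and 9399 to 12219 between islets and non-islet cells (10401). Of those called between induced cells and islets 46.3% were higher, against 65.2% with a common median and 61.0% at equal noise; between induced and non-islet cells 52.0%, against 71.1%, 71.6% as deposited and 95.1%; and between islets and non-islet cells 54.3%, against 68.8%, 77.1% and 94.4%. The median of all kept probes stood at 0.049 for induced against non-islet cells and at 0.28, 0.27 and 1.03 under these scalings, and at 0.094, 0.21, 0.34 and 0.94 for islets against non-islet cells. Relative to it, Ttr and Hhex were still higher in induced than in non-islet cells by 2.34 to 3.18 and 2.17 to 2.77 under these 3 scalings, while an offset of 50 put Hhex at 1.77 without this correction. For induced cells against islets the median was -0.038, against 0.067 at equal noise, and Sst relative to it stood at -0.26. The noise of non-islet arrays limits what can be said of Irx1 and Hhex there.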
